A study of Homo sapiens with 6 samples.

Results

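The genes that carry amino acids and their relatives across the membranes of HepG2 cells were compared between cells with and without a hairpin against a long noncoding RNA. HepG2 is an established cell line from a human liver cancer, with many of the functions of hepatocytes. The genes were taken by symbol from 7 solute carrier families of the deposited table (SLC1, SLC3, SLC6, SLC7, SLC36, SLC38 and SLC43), with SLC7A11 left out. They numbered 58 of the 23368 distinct genes in the table: 19 in SLC6, 12 in SLC7, 11 in SLC38, 7 in SLC1, 4 in SLC36, 3 in SLC43 and 2 in SLC3. The 3 libraries in each group carried replicate letters a, b and c. In the shCHROME group, HepG2 cells stably expressed a hairpin against the variants of CHROME, a long noncoding RNA. In the EV group, they expressed a hairpin with no target, from the same pLKO vector and by the same route, a lentivirus packaged in HEK293T cells. Both groups were therefore transduced, and no library came from untransduced cells. The titles name a single knockdown construct, SH3, so an effect of that hairpin's sequence and an effect of losing CHROME cannot be told apart. CHROME itself was not analysed here. Nothing states that the libraries of a group were separate cultures, so the spread behind each p-value is that of the libraries alone and may be technical.

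Amino acid transporters work as exchangers, which let one amino acid out for another let in, or as concentrating carriers, which use the sodium, chloride or proton gradient. SLC1 members take up glutamate or exchange small neutral amino acids. SLC7 light chains exchange large neutral and basic amino acids and reach the membrane only when bound to an SLC3 heavy chain. SLC38 members import glutamine and alanine, which the liver uses for urea and glucose synthesis, and SLC6 members carry transmitters, osmolytes and creatine as well as amino acids. SLC36 includes proton-coupled carriers, often in lysosomes, and SLC43A1 and SLC43A2 move branched-chain and other large neutral amino acids down their gradient. SLC43A3, of the same family, is known as a carrier of purine nucleobases.

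Of the 58 genes, 37 had enough reads for the test and 21 did not. In shCHROME cells 5 fell and 3 rose. The 5 that fell were SLC6A12, the carrier of betaine and GABA; SLC6A4, the serotonin transporter; SLC38A4, a sodium-coupled importer of neutral amino acids; SLC1A2, a glutamate transporter; and SLC38A5, a glutamine carrier. The 3 that rose were SLC7A9, an exchanger light chain; SLC6A11, a GABA transporter; and SLC43A1, a facilitator of branched-chain amino acids. SLC6A12 was the one with a change over 2-fold, and 27 of the 37 tested genes had a fitted fold under 1.2 in either direction. The test was limma on log2(normalized count + 1), fitted over 14598 genes, and a gene was called where its Benjamini-Hochberg adjusted p was under 0.05.

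Calls took 13.5% of the tested transporters downward and 8.11% upward, beside 6.87% and 3.64% of all tested genes. With 5 and 3 genes behind them, these shares are a description of the transporters and no test of them as a class. The median log2 fold change of the 37 was -0.06, and that of all tested genes was 0.01. Values lay below 0 in 25 of the 37 (67.6%) and above 0 in 12, beside 47.8% of all tested genes below 0. Scaled to library totals, the split was 21 below and 16 above, beside 36.6% of all tested genes below 0. In 9 of the 37 (24.3%) every shCHROME library was below every EV library, beside 15.0% of all tested genes, and in 4 (10.8%) every one was above, beside 13.0%. The count of genes that rose was 1 without EV replicate a, shCHROME replicate b or shCHROME replicate c and 0 without EV replicate c, and the count that fell ran from 4 to 7 over the libraries left out. The 29 genes that did not pass include most of the abundant members, which are given below with the interval of their difference.

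**Figure D1:**
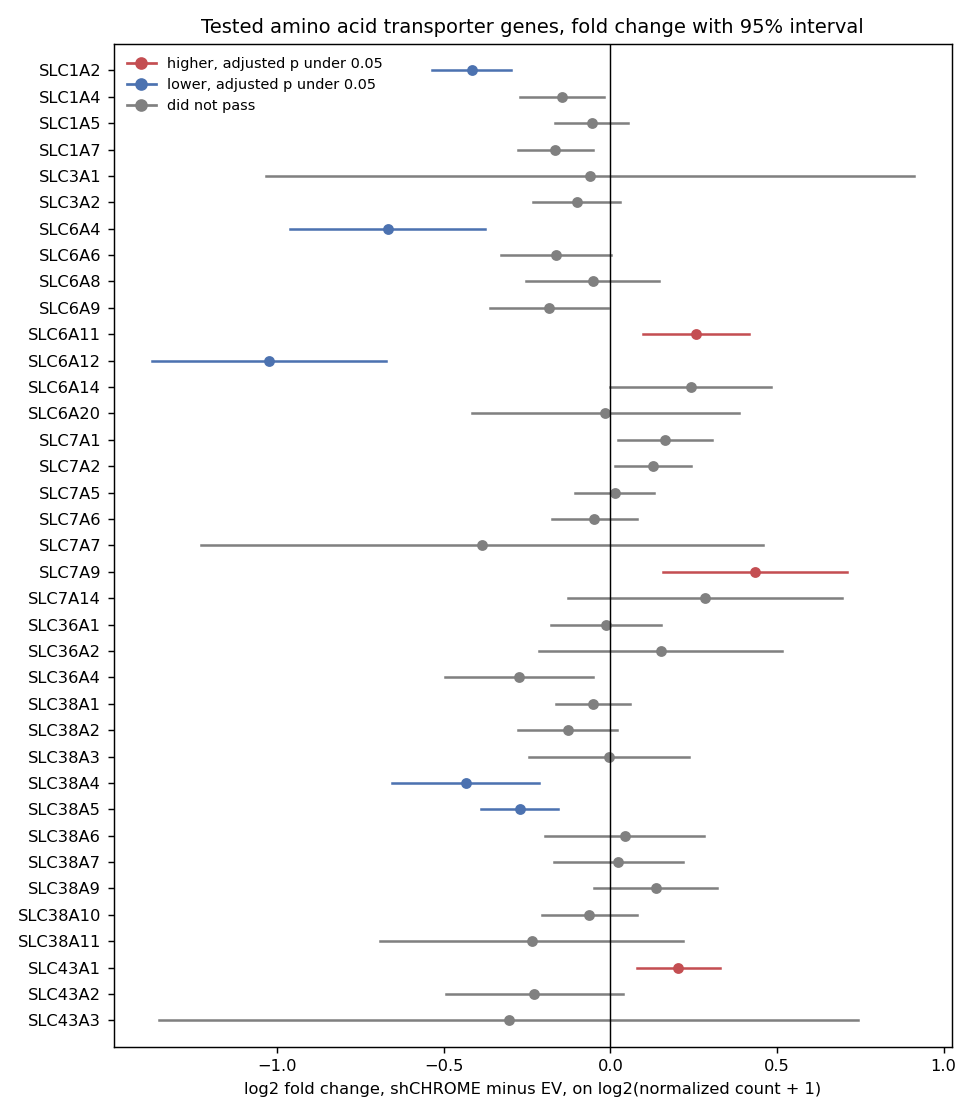
Log2 fold change of each of the 37 tested transporter genes (horizontal axis, shCHROME minus EV, on log2(normalized count + 1)), in family order from SLC1 at the top to SLC43 at the bottom. Points are limma estimates and bars their 95% intervals; blue marks the 5 genes that fell, red the 3 that rose and grey the 29 that did not pass. SLC6A12 lies farthest from 0 at -1.02, and the widest bars belong to genes with few reads, such as SLC3A1 and SLC43A3.

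The reads assigned to the listed genes numbered 29188213 to 35429420 per library. Over all tested genes 532 rose and 1003 fell; when values were scaled to library totals the split was 936 against 702. Leaving out EV replicate a gave 297 and 635, EV replicate c 323 and 649, and shCHROME replicate c 245 and 599. Hepatocyte identity was checked with 10 marker genes, of which all 10 were expressed and 6 fell, beside 6.87% of all tested genes. Among the 6 were ALB (albumin, 1.25-fold, limma adjusted p = 0.0206) and AFP (alpha-fetoprotein, 1.83-fold, limma adjusted p = 1.85e-07). The 4 other hepatocyte markers did not pass, with APOB, AHSG and HNF4A below 0 and FGB above. The summed level of the 10 hepatocyte markers was 1519810 to 1639450 normalized counts in EV libraries and 1226170 to 1426680 in shCHROME libraries. ALB and APOB made up most of that sum. The mean of ALB went from 722799 to 580030 and that of APOB from 466633 to 456396, so the fall of the sum is largely that of ALB. Of 10 markers of embryonic kidney cells, the source of the virus, NEFL and NEFM were listed at 0 and 5 were tested. CDH2, a cadherin, fell 1.17-fold (limma adjusted p = 0.0169), from a mean of 3130 to 2672 normalized counts. The summed level was 3537 to 3714 in EV libraries and 3088 to 3264 in shCHROME libraries. CDH2 made up most of that sum, so its fall is largely that of CDH2. The 4 other tested markers did not pass, with PAX8 and HOXD10 below 0 and WT1 and HOXD11 above. Of 10 markers of blood, endothelial and stromal cells, 6 were tested, none passed, DCN was listed at 0, and the summed level was 2640 to 2811 against 2479 to 2995. The part of these marker changes in the transporter results was not tested. In bulk RNA, fewer cells that express a gene and less of its RNA per cell cannot be told apart.

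SLC1A2 (chromosome 11) encodes a glutamate transporter best known from astrocytes, and it had the smallest adjusted p of the genes that fell. It had 17519, 17456 and 17525 normalized counts in EV libraries a, b and c. In shCHROME libraries a, b and c it had 12200, 13552 and 13661. The EV libraries lay within a narrow band, and each shCHROME library was well below it, at 69.7%, 77.4% and 78.1% of the EV mean. This gave a log2 fold change of -0.42 (SE 0.06, limma adjusted p = 0.000102), a fall of 1.33-fold. Because the counting may not have used strand, reads from SLC1A2 and from the antisense genes that overlap it cannot be told apart. The annotation also places antisense or noncoding genes over SLC6A4, SLC6A12, SLC38A4 and SLC7A9, and no overlapping gene over SLC6A11, SLC38A5 and SLC43A1.

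The other glutamate carrier with enough reads was SLC1A7, which ranked second of all 58 genes per length. It had 12374, 12865 and 12478 normalized counts in EV libraries and 11476, 11425 and 10753 in shCHROME libraries. The groups did not overlap, and yet the difference of -0.16 (SE 0.05, 95% interval -0.28 to -0.05) missed the threshold with a limma adjusted p of 0.0563. It passed without shCHROME replicate a (limma adjusted p = 0.0439) and with DESeq2 (adjusted p = 0.0272), and over all 16 alternatives its adjusted p ran from 0.0272 to 0.244. SLC1A4 and SLC1A5, which exchange alanine, serine, cysteine and, in the case of SLC1A5, glutamine, also had every shCHROME library below every EV library. For SLC1A5 the values were 10028, 9985 and 9912 in EV and 9850, 9373 and 9569 in shCHROME, a log2 difference of -0.06 (95% interval -0.17 to 0.05, limma adjusted p = 0.565). For SLC1A4 the difference was -0.15 (95% interval -0.27 to -0.02, limma adjusted p = 0.138). When values were scaled to library totals the groups overlapped for SLC1A5, as they did for SLC6A6, which is described below. The ratio of SLC1A2 to SLC1A5, which no scaling can move, was 1.75, 1.75 and 1.77 in EV libraries and 1.24, 1.45 and 1.43 in shCHROME libraries. SLC1A2 was thus lower relative to its family member in each knockdown library. SLC1A1, SLC1A3 and SLC1A6 had too few reads to test.

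**Figure D2:**
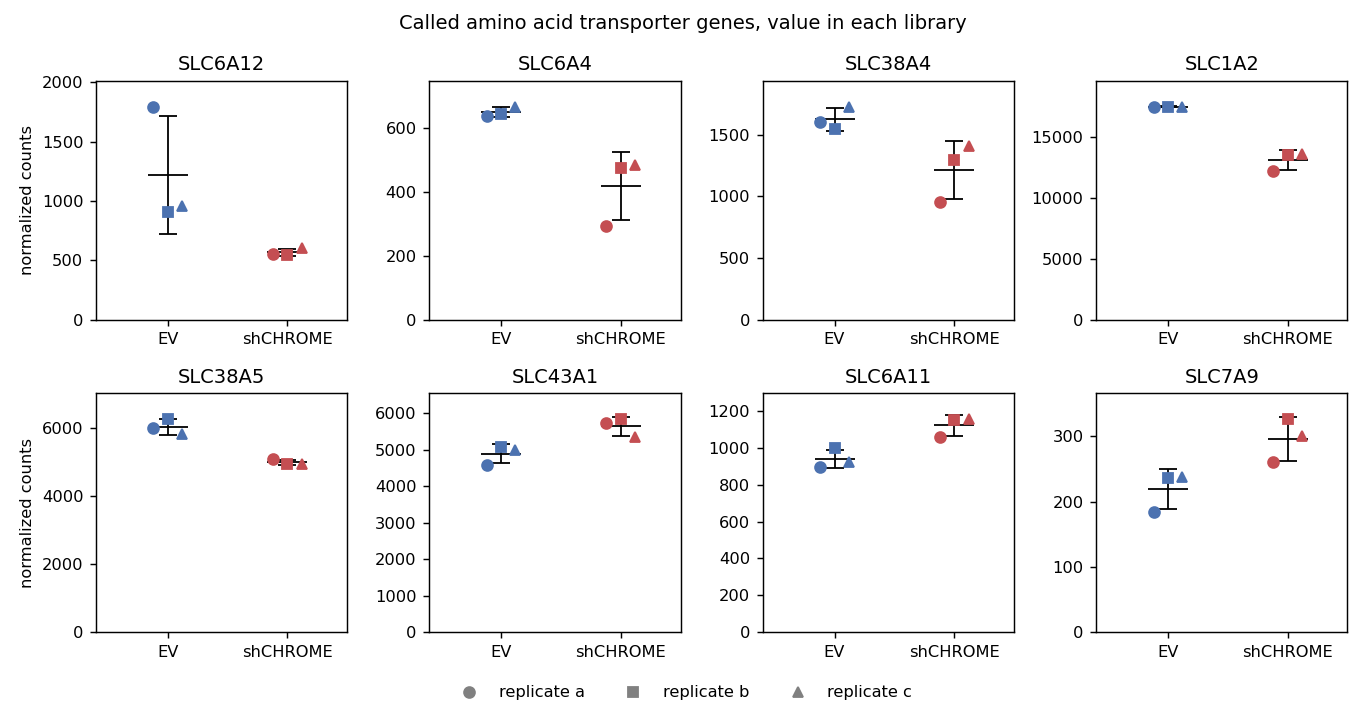
Normalized counts (vertical axes, from 0) of the 8 called genes in each EV library (blue) and shCHROME library (red), ordered by fold change. Symbols mark replicates a, b and c, long ticks the group means and error bars 1 SD; EV replicate a stands far above the other EV libraries for SLC6A12, and shCHROME replicate a is the lowest library for SLC6A4, SLC38A4 and SLC1A2.

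In SLC6, a family of sodium- and chloride-coupled carriers, 2 of 8 tested genes fell and 1 rose. SLC6A12 (chromosome 12) carries betaine, an osmolyte and methyl donor, together with GABA. Its EV values were 1796, 905 and 958 normalized counts in replicates a, b and c. Its shCHROME values were 559, 548 and 603. All shCHROME libraries were below all EV libraries, and EV replicate a was far above the other controls. SLC6A12 had a log2 fold change of -1.02 (SE 0.17, limma adjusted p = 0.000599), or 2.03-fold. Without EV replicate a it was -0.71 (limma adjusted p = 0.000101), so the call held and the fall was smaller; over the 16 alternatives the adjusted p ran from 3.39e-05 to 0.0114. The remaining osmolyte and creatine carriers did not pass: SLC6A6, which carries taurine, had a difference of -0.16 (95% interval -0.33 to 0.0013, limma adjusted p = 0.211), and SLC6A8, which carries creatine, one of -0.05 (95% interval -0.25 to 0.15, limma adjusted p = 0.799). The ratio of SLC6A12 to SLC6A6 was 1.60, 0.913 and 0.919 in EV libraries and 0.637, 0.565 and 0.619 in shCHROME libraries.

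SLC6A13, a related GABA carrier, is the annotated neighbour of SLC6A12 and held 27 reads in the EV libraries together and 11 in the shCHROME libraries together. It was under the filter on low values. It had 12.3, 9.14 and 5.97 normalized counts in EV libraries and 3.74, 3.10 and 4.25 in shCHROME libraries, with no overlap. With no filter its log2 difference was -1.07, with a limma adjusted p of 0.160, so the difference did not pass at this depth.

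SLC6A4 (chromosome 17), which takes up serotonin, had 638, 643 and 667 normalized counts in the EV libraries. It had 295, 475 and 486 in shCHROME libraries a, b and c. The control libraries were close together, and shCHROME replicate a lay below the other knockdown libraries. On the log2 scale SLC6A4 changed by -0.67 (SE 0.14, limma adjusted p = 0.00450). Without shCHROME replicate a it was -0.43 (limma adjusted p = 0.00375), a call held at a smaller size, and the alternatives together gave adjusted p-values of 0.000296 to 0.0198.

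SLC6A11 (chromosome 3) takes up GABA and moved the other way. Its EV values were 896, 996 and 925, and its shCHROME values were 1058, 1151 and 1157 normalized counts. The groups did not overlap, and the gap between the highest control and the lowest knockdown library was smaller than the range of the EV group. The log2 fold change was 0.26 (SE 0.08, limma adjusted p = 0.0355). The call was lost without EV replicate a (limma adjusted p = 0.148), EV replicate c (0.116), shCHROME replicate b (0.0840) or shCHROME replicate c (0.141), each time with the direction kept, and ran from 0.0159 to 0.148 over the alternatives. SLC6A9, a glycine transporter, and SLC6A14, a carrier of neutral and basic amino acids, did not pass, at -0.18 (limma adjusted p = 0.187) and 0.24 (limma adjusted p = 0.208).

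SLC38 held the most abundant transporter of the set, and 2 of its 10 tested genes fell. SLC38A4 (chromosome 12) belongs with SLC38A1 and SLC38A2 to system A, the sodium-coupled importers of alanine, glutamine and other neutral amino acids. It had 1604, 1544 and 1729 normalized counts in EV libraries a, b and c. It had 955, 1293 and 1405 in shCHROME libraries a, b and c. Each knockdown library was below each control, with shCHROME replicate a the lowest. SLC38A4 changed by -0.43 on the log2 scale (SE 0.10, limma adjusted p = 0.0119), or 1.35-fold. Without EV replicate c the adjusted p was 0.0590, and without shCHROME replicate a the change was -0.27 with the call held (limma adjusted p = 0.0264). Its adjusted p ran from 0.00316 to 0.0590 over the alternatives.

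SLC38A2, a system A carrier known for its induction when amino acids run short, sits next to SLC38A4 on the chromosome. It made up 30.9% of the summed level per kilobase of the 58 genes in the EV means and 30.2% in the shCHROME means. Its values were 70389, 69563 and 71369 in EV libraries and 71965, 57555 and 64678 in shCHROME libraries. The knockdown libraries straddled the controls, and the difference was -0.13 (95% interval -0.28 to 0.02, limma adjusted p = 0.285). Without shCHROME replicate a, which was the highest library, it was -0.21 and passed (limma adjusted p = 0.0356), and without shCHROME replicate b, which was the lowest, it was -0.046 (0.700). These were the ends of the range of adjusted p over the alternatives. SLC38A1 had 17190, 17032 and 17196 normalized counts in EV and 17058, 16030 and 16521 in shCHROME, a difference of -0.05 (95% interval -0.16 to 0.06, limma adjusted p = 0.600). System A thus held a called gene, SLC38A4, and 2 more abundant genes that did not pass. The ratio of SLC38A4 to SLC38A2 was 0.0228, 0.0222 and 0.0242 in EV libraries. In shCHROME libraries it was 0.0133, 0.0225 and 0.0217, so the groups overlapped. The ratio of SLC38A4 to SLC38A1 was 0.0933, 0.0906 and 0.101 in EV libraries. In shCHROME libraries it was 0.0560, 0.0807 and 0.0851, with no overlap.

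SLC38A5 (chromosome X) belongs with SLC38A3 to system N, which moves glutamine, histidine and asparagine in either direction. It had 5996, 6264 and 5810 normalized counts in EV libraries and 5084, 4944 and 4937 in shCHROME libraries. The knockdown libraries were tightly grouped, all below the lowest control. The log2 fold change was -0.27 (SE 0.06, limma adjusted p = 0.00360), or 1.21-fold. SLC38A3, the main system N carrier of liver, had a difference of -0.0039 with a 95% interval of -0.24 to 0.24, and the sign of that difference changed with the scaling. Its libraries ranged from 1567 to 2303 normalized counts, and the groups overlapped. The ratio of SLC38A5 to SLC38A3 overlapped too, at 3.61, 3.41 and 2.56 in EV libraries and 3.24, 2.15 and 2.60 in shCHROME libraries. The 5 tested genes among the other SLC38 members, which include the lysosomal arginine sensor SLC38A9, did not pass and ran from -0.24 to 0.14.

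In SLC7, 1 of 7 tested genes rose and none fell. SLC7A9 (chromosome 19) is the light chain that exchanges cystine and basic amino acids in kidney, where its partner is SLC3A1. It had 184, 237 and 238 normalized counts in EV libraries and 261, 327 and 301 in shCHROME libraries. Every knockdown library was above every control, with EV replicate a the lowest. SLC7A9 had a log2 fold change of 0.43 (SE 0.13, limma adjusted p = 0.0407). The call was lost without EV replicate a (limma adjusted p = 0.193), EV replicate c (0.0532), shCHROME replicate b (0.143) or shCHROME replicate c (0.133), and also with no filter on low values (0.0649). The range over the alternatives was 0.0171 to 0.193. SLC3A1, the heavy chain that brings SLC7A9 to the membrane, was near the detection limit, at 5.60 to 12.9 normalized counts across the 6 libraries. The ratio of SLC7A9 to SLC3A1 overlapped, at 18.4 to 28.8 in EV libraries and 28.3 to 46.5 in shCHROME libraries.

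SLC3A2, the heavy chain of most other light chains, and SLC7A5, the light chain that exchanges large neutral amino acids for glutamine, were both abundant. SLC3A2 had 8957, 9100 and 8152 normalized counts in EV libraries and 8737, 8065 and 7645 in shCHROME libraries. SLC7A5 had 14874, 13591 and 14977 in EV and 14513, 15098 and 14218 in shCHROME. The groups overlapped for both genes. The differences were -0.10 for SLC3A2 (95% interval -0.23 to 0.03, limma adjusted p = 0.348) and 0.01 for SLC7A5 (95% interval -0.10 to 0.13, limma adjusted p = 0.922). For SLC7A5 both bounds lie within a change of 1.2-fold. The ratio of SLC7A5 to SLC3A2 ran from 1.49 to 1.84 in EV libraries and from 1.66 to 1.87 in shCHROME libraries. Reads of SLC7A5 may be shared with its copy SLC7A5P2, which had a mean of 699.5 normalized counts in EV and 708.1 in shCHROME.

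The uniporter branch of SLC7 imports arginine and lysine. SLC7A2, its liver form, had 11018, 11228 and 11774 normalized counts in EV libraries and 12045, 12273 and 12887 in shCHROME libraries, with no overlap. The difference of 0.13 (95% interval 0.02 to 0.24) did not pass (limma adjusted p = 0.148) and passed when values were scaled to library totals (0.0391, in a range of 0.0391 to 0.416 over the alternatives). SLC7A1, the form found in most cells, had a difference of 0.16 (95% interval 0.02 to 0.31, limma adjusted p = 0.139). SLC7A6 and SLC7A7, light chains that let basic amino acids out, did not pass either, and SLC7A7 had fewer than 32 normalized counts in each library.

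SLC43A1 (chromosome 11), a facilitator of leucine, isoleucine, valine and phenylalanine that needs no heavy chain, rose. It had 4592, 5082 and 4995 normalized counts in EV libraries and 5727, 5840 and 5334 in shCHROME libraries. The groups did not overlap. The log2 fold change was 0.20 (SE 0.06, limma adjusted p = 0.0347), or 1.15-fold. The call was lost without EV replicate a (limma adjusted p = 0.193), shCHROME replicate b (0.0903), EV replicate c (0.0756) or shCHROME replicate a (0.0604), within a range of 0.0112 to 0.193 over the alternatives. The ratio of SLC43A1 to SLC7A5, the other main carrier of branched-chain amino acids here, was 0.309, 0.374 and 0.334 in EV libraries and 0.395, 0.387 and 0.375 in shCHROME libraries, with no overlap. SLC43A2 and SLC43A3 did not pass, at -0.23 (limma adjusted p = 0.288) and -0.30 (limma adjusted p = 0.774). The 3 tested SLC36 genes did not pass; the farthest from 0 was SLC36A4, at -0.27 (95% interval -0.49 to -0.05, limma adjusted p = 0.112).

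**Figure D3:**
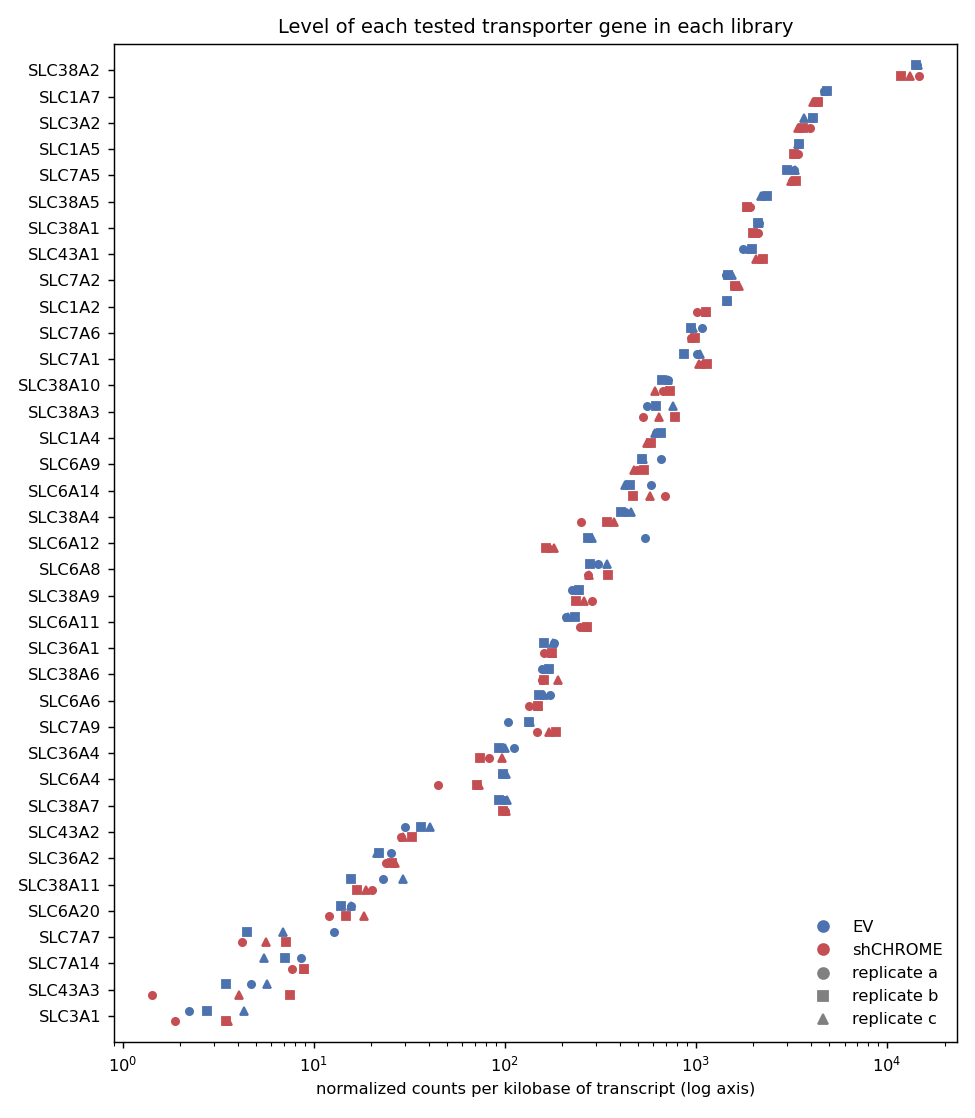
Level of each of the 37 tested transporter genes in each library, in normalized counts per kilobase of its longest protein-coding transcript (log axis), sorted by the EV mean. Blue points are EV libraries, red points shCHROME libraries and symbols replicates; SLC38A2 is the highest, at an EV mean of 14411, and SLC3A1 the lowest, at 3.11.

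Per kilobase of transcript, the 10 highest genes in EV cells were, from the top, SLC38A2, SLC1A7, SLC3A2, SLC1A5, SLC7A5, SLC38A5, SLC38A1, SLC43A1, SLC7A2 and SLC1A2. SLC38A2 stood at 14411 normalized counts per kilobase, SLC1A7 at 4768 and SLC1A2 at 1453. Of these 10, 3 were called: SLC38A5 and SLC1A2, which fell, and SLC43A1, which rose. The summed level of the 58 genes was 46191 to 46920 per kilobase in EV libraries and 42763 to 45585 in shCHROME libraries, and SLC38A2 accounted for 27.5% to 32.3% of it in each library. The share of the glutamate carriers was 13.1% to 13.7% in EV libraries and 11.8% to 12.8% in shCHROME libraries. Other shares were higher in shCHROME libraries without overlap. That of the uniporter branch of SLC7 was 5.08% to 5.57% in EV and 5.86% to 6.47% in shCHROME. The share of SLC43 was 3.84% to 4.32% against 4.82% to 5.35%, and that of the other SLC38 members 2.59% to 2.69% against 2.72% to 2.89%. A lower share of 1 class raises those of the rest.

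The 21 genes under the filter held at most 38 reads over the 6 libraries. SLC1A6, SLC6A7, SLC6A17, SLC7A3 and SLC7A13 were listed at 0 in every library, which allows up to 3 reads in all, or 0.505 normalized counts per library, for counting error only. A further 11 had 1 to 3 reads, among them SLC6A3, the dopamine transporter of neurons, and SLC7A8, a light chain with SLC3A2 as its partner. The last 5 had 12 to 38 reads: SLC1A1, SLC6A13, SLC6A16, SLC36A3 and SLC38A8. IRS2 and APOC2, which liver cells commonly express, are also listed at 0 in every library, so a value of 0 here does not show that a gene is silent.

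Promoter sequence was read for 44 of the 58 genes from RefSeq on GRCh38.p14, in windows of 300 bases around the annotated start. A pair of letter patterns were sought on both strands: TGATGNAA, bound by ATF4 together with C/EBP proteins when amino acids run short, and CACGTG, the E-box bound by MYC, TFEB and related factors. The patterns share no overlap in the windows shown. CACGTG was present in 6 of the 44 windows (13.6%), beside 7.26% of all 35116 windows in the table. TGATGNAA was present in 4 (9.09%), beside 3.62%. A few windows are shown, and those with CACGTG set the same pattern beside different outcomes. SLC38A5, which fell, has CACGTG from position -206, counted from the start (chrX:48470211-48470510, minus strand). SLC43A1, which rose, has it from position -112 (chr11:57515653-57515952, minus strand). SLC7A5, which did not pass, has it from position -130 (chr16:87869458-87869757, minus strand). SLC3A2, which did not pass, has TGATGNAA on the opposite strand, first base at position 38 after the start (chr11:62881449-62881748, plus strand). The sequences run 5′ to 3′ on the gene's strand, and capitals mark the match.
SLC38A5: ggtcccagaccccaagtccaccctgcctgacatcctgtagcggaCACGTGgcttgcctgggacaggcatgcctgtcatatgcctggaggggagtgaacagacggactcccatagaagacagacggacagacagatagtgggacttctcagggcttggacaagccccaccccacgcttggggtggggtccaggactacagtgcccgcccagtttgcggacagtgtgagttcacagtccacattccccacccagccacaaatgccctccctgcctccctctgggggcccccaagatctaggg
SLC43A1: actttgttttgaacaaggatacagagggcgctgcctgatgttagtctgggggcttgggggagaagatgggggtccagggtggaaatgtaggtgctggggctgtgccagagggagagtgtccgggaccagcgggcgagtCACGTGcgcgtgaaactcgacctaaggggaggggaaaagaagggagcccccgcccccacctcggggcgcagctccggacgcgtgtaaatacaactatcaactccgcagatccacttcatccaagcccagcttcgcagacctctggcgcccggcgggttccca
SLC7A5: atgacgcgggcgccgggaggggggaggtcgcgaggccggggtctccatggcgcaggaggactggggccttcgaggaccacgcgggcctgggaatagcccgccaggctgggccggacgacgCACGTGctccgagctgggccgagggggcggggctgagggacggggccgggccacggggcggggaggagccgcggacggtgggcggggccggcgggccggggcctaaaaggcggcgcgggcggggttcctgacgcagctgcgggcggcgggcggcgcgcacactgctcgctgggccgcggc
SLC3A2: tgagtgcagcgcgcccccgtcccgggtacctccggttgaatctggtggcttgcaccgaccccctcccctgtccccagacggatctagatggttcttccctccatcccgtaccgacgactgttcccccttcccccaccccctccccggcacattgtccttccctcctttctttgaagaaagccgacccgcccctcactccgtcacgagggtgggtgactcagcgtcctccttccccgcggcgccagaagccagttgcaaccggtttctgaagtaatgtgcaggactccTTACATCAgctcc

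Of the 8 called genes, 6 had a window, and SLC1A2 and SLC6A12 had none. Among those 6, CACGTG occurred in 1 of the 3 genes that fell and 1 of the 3 that rose, and TGATGNAA in none. A match is a string of letters and no evidence of binding.

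The genes next to the called transporters were also read from the annotation. Of 16 neighbours, 8 were tested and 0 were called, beside 3.64% of all tested genes that rose and 6.87% that fell. The nearest to the threshold was TIMM10, beside SLC43A1, with 1.21-fold higher values (limma adjusted p = 0.0718). CD44 and PAMR1, which flank SLC1A2, had 7 and 2 reads in all.

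The authors' deposited table rests on a set of samples that is not these 6 libraries alone: its mean differed by over 1% from that of the 6 libraries for 30 of the 37 tested genes, and for SLC6A12 it was 821.6 against 894.7 normalized counts. Its folds and calls are therefore set beside those here only as values. In the authors' deposited table, which gives its own adjusted p for the 37 tested genes, 5 were lower and 1 was higher at the same threshold. The 5 lower and SLC6A11 were called in the same direction here. For SLC43A1 and SLC7A9 the authors' deposited table gives adjusted p-values of 0.0533 and 0.0690. For SLC6A12 the authors' deposited table gives a log2 fold change of -0.42, and the value fitted here to the 6 libraries was -1.02. The authors' folds also lay nearer 0 for genes with few reads, such as SLC7A7 (-0.11 against -0.39 here) and SLC43A3 (-0.02 against -0.30). For the abundant SLC1A2 they were close, at -0.39 against -0.42. The 2 sets of folds may thus differ in measure as well as in samples, which was not tested. With edgeR's quasi-likelihood test on recovered reads the same 8 transporters were called, and with DESeq2 those 8 and SLC1A7.

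**Figure D4:**
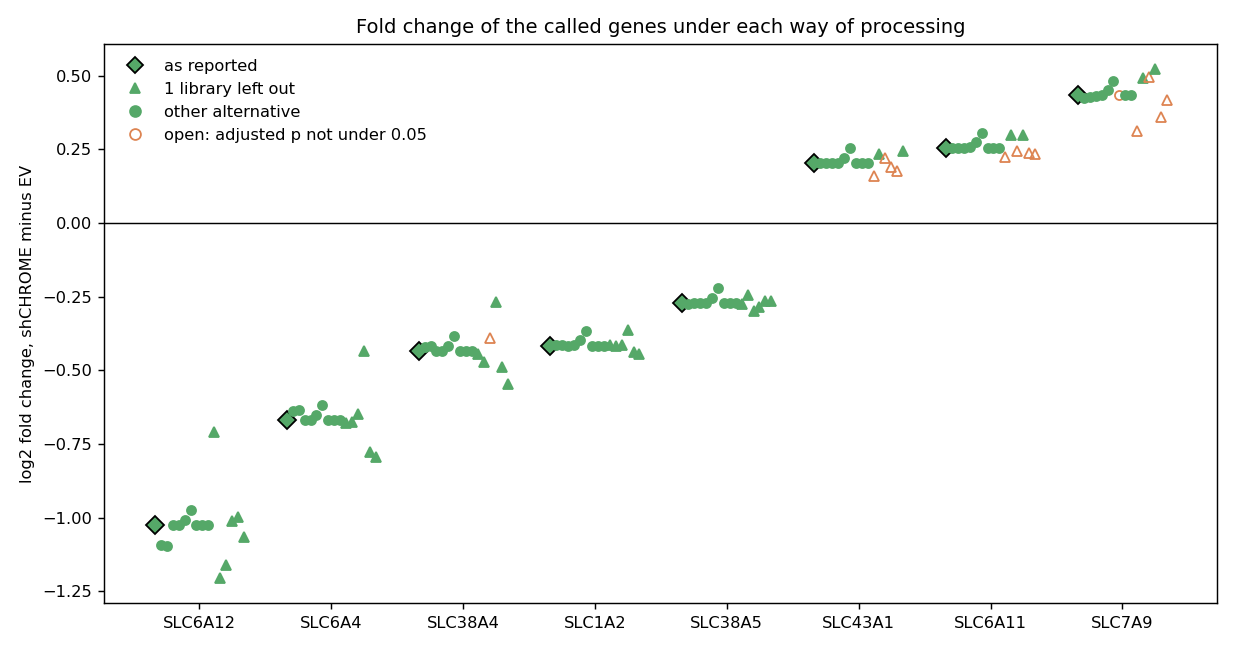
Log2 fold change (vertical axis, shCHROME minus EV) of each of the 8 called genes as reported (diamonds), with 1 library left out (triangles) and under the other alternatives of test, scaling, filter and pseudocount (circles). Filled symbols had an adjusted p under 0.05 and open symbols did not; no gene crosses 0, and the open symbols belong to SLC38A4 and the 3 genes that rose.

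Genes that work beside these transporters were read from 4 further lists. Over all tested genes, 3.64% rose and 6.87% fell. The counts in each list are small and were not tested against those shares. Of the amino acid and peptide transporters of other families, 7 were tested and 0 were called by limma; the smallest adjusted p was that of SLC15A4, a lysosomal carrier of histidine and peptides, at 0.0805. Of 19 tested genes of the amino acid starvation response, 3 rose and 1 fell. SESN2, a leucine sensor, rose 1.25-fold (limma adjusted p = 0.00487), VLDLR, a lipoprotein receptor, 1.51-fold (0.0155) and ASNS, asparagine synthetase, 1.14-fold (0.0348), while ALDH1L2, a mitochondrial folate enzyme, fell 1.26-fold (0.0246). ATF4, the factor at the centre of that response, had a difference of -0.13 (limma adjusted p = 0.205).

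Of 30 tested genes of the mTORC1 pathway, through which cells sense amino acids at the lysosome, 2 rose and 4 fell. The shares of all tested genes were 3.64% and 6.87%. RRAGD, a GTPase that recruits mTORC1, fell 1.76-fold (limma adjusted p = 0.000466), from 261.8 ± 21.2 (SD, n = 3) to 148.5 ± 12.5 (SD, n = 3) normalized counts. TFEB, a lysosomal transcription factor, fell 1.38-fold (limma adjusted p = 0.00382). NPRL3, of the complex that inhibits mTORC1, rose 1.33-fold (limma adjusted p = 0.0102), and its partner NPRL2 fell 1.21-fold (0.0405). SESN2, counted in the starvation list too, was the other that rose, and SEC13 the fourth that fell. The median of the list was 0.04.

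Of 40 tested genes of amino acid breakdown and interconversion in liver, 6 rose and 4 fell, beside 3.64% and 6.87% of all tested genes. GLUD1, glutamate dehydrogenase, fell 1.23-fold (limma adjusted p = 0.00418). GOT1, cytosolic aspartate aminotransferase, rose 1.29-fold (limma adjusted p = 0.000860), and GCSH, of the glycine cleavage system, rose 1.29-fold (0.00297). Glutamate has a carrier, SLC1A2, and an enzyme, GLUD1, that fell and an enzyme, GOT1, that rose, while GLUL, which uses it to make glutamine, did not pass at -0.07.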

How the data were processed

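Libraries made from total RNA (Illumina TruSeq, paired reads) were processed by the authors against hg19 with DESeq2 (listed as version 3.4), featureCounts 1.5.2 and STAR 2.5, per the submitters' processing notes. Strand setting and annotation are not given in the sources used here. The authors deposited 1 table with a normalized signal per gene and library (read counts divided by a size factor), beside their own p-value, adjusted p-value and log2 fold change. It had 24656 rows, of which 1288 repeats were removed. Divided by the value of a single read, 100% of the values came out whole to within 0.01 reads, and these reads were used where counts were needed. Replicates differed by more than sampling noise (chi-square per degree of freedom 5.72 to 17.0).

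The main test was limma 3.58.1 (R 4.3.3) with an intensity trend on log2(value + 1), group as the only term, and genes kept by filterByExpr of edgeR 4.0.16. Fold changes are on that scale, which understates changes of low genes. The test was checked on simulated data. edgeR and DESeq2 1.42.0 on recovered reads called 1553 and 1608 genes, against 1535 with limma. Lengths are those of the longest protein-coding transcript in GENCODE 29; 57 genes matched by identifier and 1 by symbol. Values in each library are given for called genes and the 10 highest per length; genes that differed by 1.5-fold without overlap and a mean of at least 10 added none. Other lists name up to 4 genes by adjusted p, and genes named besides were chosen after their values were seen. Some genes that this rule names are not reported here. The genes and lists were chosen with earlier results of these data known. The 16 alternatives covered test, scaling, filter, each library left out, a replicate block and a pseudocount of 0.1.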

Additional observations from a re-analysis of the deposited data

How the results depend on the processing

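Under each of the 16 alternatives, SLC1A2, SLC6A12, SLC6A4 and SLC38A5 kept their direction and their call; SLC38A4 lost its call under 1 of them. Leaving out a library left 0 to 3 transporters higher and 4 to 7 lower, with 0 higher without EV replicate c. With a replicate block, 1 transporter was higher and 5 were lower, and over all genes 349 were higher; SLC6A11 and SLC43A1 then had limma adjusted p-values of 0.0587 and 0.0695. Deviations of same-letter libraries correlated at -0.05, -0.09 and 0.04, and those of different-letter libraries at -0.08 to 0.13. No shared effect of a letter was seen, which cannot show whether same-letter libraries were prepared together. Over all genes, library totals gave 936 higher and 702 lower, and leaving out a library gave 245 to 528 higher and 599 to 1051 lower, the fewest without shCHROME replicate c. SLC7A5, near 0, turned negative without EV replicate b or shCHROME replicate b and ran from -0.031 to 0.039 over the libraries left out; the cause was not tested. SLC6A20, SLC7A6, SLC36A1 and SLC38A3, none called, changed sign with the scaling. The number of libraries, 3 a group, limits the precision.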
